A study of Rattus norvegicus with 6 samples.

Results

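The 41 genes described here encode the machinery that copies nuclear DNA and supplies its building blocks, and each was looked up in the data by its gene symbol. Of the 41 symbols, 40 matched a gene among the 21648 genes of the deposited rat table, and Rrm2 was not analysed here. The RNA came from cultured ventricular myocytes, the contracting cells of the heart, of wild-type rat pups at postnatal day 3. In 3 libraries the cells had received 10 µM of compound 915 for 72 h, and in 3 libraries they had received an equal volume of the solvent DMSO for 72 h. The submitters call 915 an agonist of the estrogen-related receptors, and the study asked how it changes the transcriptome. Both groups share the preparation. Cells that attached to plastic within 90 min were discarded to lower the share of fibroblasts, and the rest were seeded in 10% serum with 100 µM bromodeoxyuridine, a thymidine analogue that hampers dividing cells. The medium was changed to one with insulin, transferrin and selenium after 2 days. Replicates are labelled as biological without a word on separate isolations, so the p-values reflect variation among these 6 libraries and part of it may be technical.

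Copying DNA begins in G1, when the origin recognition complex, Cdc6 and Cdt1 load rings of the Mcm2 to Mcm7 helicase onto origins, a step called licensing. In S phase Cdc45, the GINS complex and Mcm10 turn these rings into active helicases, primase and polymerase alpha start each strand, and the polymerases delta and epsilon extend them on the sliding clamp Pcna. Many of these genes are known targets of E2F transcription factors, which drive entry into S phase, and heart muscle cells of rodents largely leave the cell cycle in the first weeks after birth.

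With 915, 39 of the 40 measured replication genes were lower and 0 were higher in edgeR's quasi-likelihood test at an adjusted p of 0.05, where 25.5% of the 14253 genes tested were lower and 24.3% higher. All 40 passed the filter on low counts. The median log2 fold change of the 40 was −0.67, a 1.60-fold decrease, against −0.01 over all genes tested. The range ran from −1.68 for Uhrf1 to −0.16 for Gins2, the gene that did not pass. Decreases of at least 2-fold were found for 13 members, a size that 6.9% of all genes tested reached downwards. In CPM, the usual counts scaled to a common library total, all 3 libraries with 915 lay below all 3 with DMSO for 40 of 40 members, which was the case for 32.8% of all genes tested. The summed level of the 40 genes was 871, 874 and 870 CPM with 915, against 1439, 1407 and 1394 CPM with DMSO. The libraries of each group thus lay close together and the groups far apart, as the map of members by library shows.

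**Figure D1:**
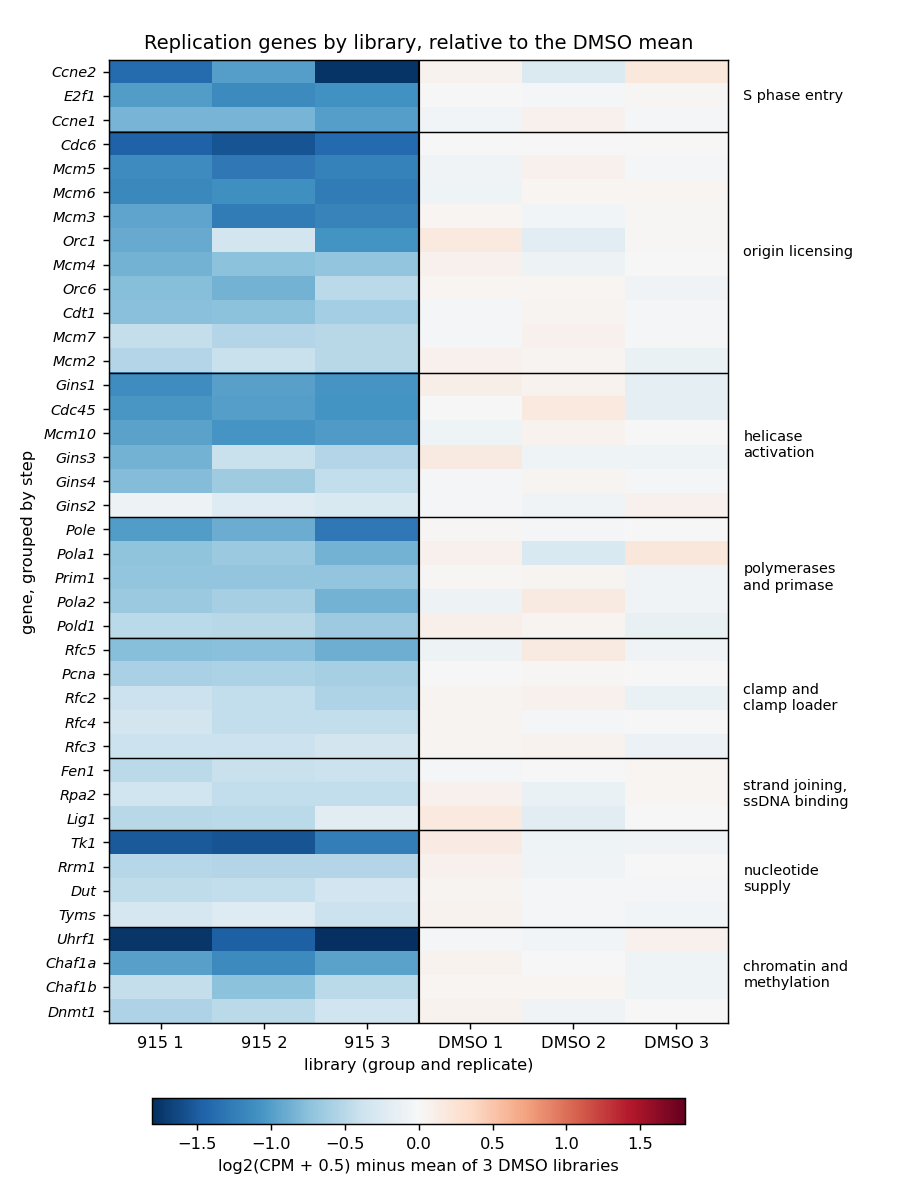
Level of each of the 40 replication genes in each library, as log2(CPM + 0.5) minus the mean of the 3 DMSO libraries, with 915 libraries on the left and genes grouped by step. Blue is lower and red is higher; the 915 columns are blue for all 40 genes, palest for Gins2 and darkest for Uhrf1, Cdc6, Tk1 and Ccne2.

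Markers of cardiomyocytes and of other cell types moved in the same libraries, where 25.5% of all genes tested were lower and 24.3% higher. Of 11 matched cardiomyocyte markers, 11 were higher with 915 and 0 lower (median log2 fold change 0.39), with summed levels of 32111 to 32516 CPM with 915 and 22590 to 23714 CPM with DMSO. Of 11 fibroblast markers 8 were lower and 2 higher (median −0.55), and their summed level was 11240 to 11885 CPM with 915, against 21237 to 22121 CPM with DMSO. Thy1, a fibroblast surface protein, had the lowest value of that list at −2.47, and Dcn, the matrix proteoglycan decorin, the highest at 0.48. Among 6 markers of smooth muscle cells and pericytes 5 fell and 0 rose (738 to 790 CPM with 915, 1770 to 1909 CPM with DMSO), with Tagln at −1.69. Of 7 endothelial markers 4 were lower, Esam at −1.26 the lowest, and 1 was higher, Kdr at 0.26 (49.8 to 51.0 CPM with 915, 63.3 to 66.9 CPM with DMSO). Among 9 markers of macrophages and other leukocytes 4 fell and 0 rose, Csf1r at −1.30 the lowest (118 to 144 CPM with 915, 222 to 240 CPM with DMSO). No matched marker of these lists was at 0 in every library. The part of cells other than cardiomyocytes in the fall of the replication genes was not tested. In bulk RNA fewer cells of a type and less RNA per cell cannot be told apart.

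The promoters of the members were searched for short words. RefSeq windows on the GRCr8 build, from 250 bases before to 50 bases after each annotated start, were found for 34 of the 40 members, with 3 windows for Uhrf1 and 2 for Dut. The words were the E2F core (TTCCCGC or TTGGCGC or TTCGCGC or TTGCCGC), the CCAAT box (CCAAT), the cell cycle homology region of mitotic genes (TTTGAA) and the extended half-site that estrogen-related receptors share with other nuclear receptors (AAGGTCA), each read on both strands. An E2F core stood in the windows of 25 of 34 members (73.5%), or in 26 of 37 windows (70.3%), against 9.52% of all 33465 windows of the same length and 15.7% of the 11435 windows whose gene was tested here. CCAAT stood in the windows of 61.8% of the members, against 37.5% of all windows and 36.5% of those of tested genes. TTTGAA stood in those of 3 members (8.82%), against 18.3% of all windows and 12.2% of those of tested genes, and AAGGTCA in those of 2 members (5.88%), against 4.61% and 3.15%. Of 49 E2F core matches, 35 began between 60 bases before and 50 bases after the start, in 24 members. The words TTGGCGC and TTCGCGC can overlap on opposite strands and were then counted separately. Such a match is a stretch of letters and not a measured binding site. The windows below belong to the 3 members with the largest and the 2 with the smallest decreases among the 34, with Mcm6 added for its number of cores after the search. Capitals mark E2F cores, in the direction of the gene, and for Uhrf1 the window with the most cores is shown.
Uhrf1, chr9:1222936-1223235, plus strand: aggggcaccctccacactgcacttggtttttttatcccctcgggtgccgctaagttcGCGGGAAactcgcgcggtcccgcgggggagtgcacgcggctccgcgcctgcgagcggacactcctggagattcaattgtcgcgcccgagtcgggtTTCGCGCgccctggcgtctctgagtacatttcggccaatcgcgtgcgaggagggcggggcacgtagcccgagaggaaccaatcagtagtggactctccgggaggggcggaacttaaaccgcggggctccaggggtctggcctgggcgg
Tk1, chr10:103544728-103545027, minus strand: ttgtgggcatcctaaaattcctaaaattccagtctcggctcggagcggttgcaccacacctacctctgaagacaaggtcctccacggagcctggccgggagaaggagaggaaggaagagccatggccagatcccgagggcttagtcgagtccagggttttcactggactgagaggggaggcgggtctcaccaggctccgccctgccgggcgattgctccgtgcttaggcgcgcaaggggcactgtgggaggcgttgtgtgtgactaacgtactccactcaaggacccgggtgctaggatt
Mcm5, chr19:13488563-13488862, plus strand: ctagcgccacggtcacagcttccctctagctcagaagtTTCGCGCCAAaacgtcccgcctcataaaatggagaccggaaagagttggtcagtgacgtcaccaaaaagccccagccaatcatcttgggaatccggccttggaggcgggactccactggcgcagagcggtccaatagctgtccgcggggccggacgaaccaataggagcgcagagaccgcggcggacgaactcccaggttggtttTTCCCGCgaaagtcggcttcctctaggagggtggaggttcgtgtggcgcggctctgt
Mcm6, chr13:42404303-42404602, minus strand: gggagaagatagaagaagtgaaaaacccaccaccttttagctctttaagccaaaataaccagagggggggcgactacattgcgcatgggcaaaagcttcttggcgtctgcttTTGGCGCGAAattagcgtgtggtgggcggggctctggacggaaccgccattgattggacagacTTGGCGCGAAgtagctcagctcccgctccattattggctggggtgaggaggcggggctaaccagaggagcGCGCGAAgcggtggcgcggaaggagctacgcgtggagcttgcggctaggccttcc
Tyms, chr9:120776034-120776333, minus strand: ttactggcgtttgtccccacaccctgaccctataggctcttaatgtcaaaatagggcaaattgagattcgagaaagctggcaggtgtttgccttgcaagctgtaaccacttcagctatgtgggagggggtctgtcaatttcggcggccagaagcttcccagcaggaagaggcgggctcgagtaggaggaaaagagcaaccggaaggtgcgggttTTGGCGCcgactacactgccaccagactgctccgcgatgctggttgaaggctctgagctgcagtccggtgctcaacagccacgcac
Gins2, chr19:65548003-65548302, minus strand: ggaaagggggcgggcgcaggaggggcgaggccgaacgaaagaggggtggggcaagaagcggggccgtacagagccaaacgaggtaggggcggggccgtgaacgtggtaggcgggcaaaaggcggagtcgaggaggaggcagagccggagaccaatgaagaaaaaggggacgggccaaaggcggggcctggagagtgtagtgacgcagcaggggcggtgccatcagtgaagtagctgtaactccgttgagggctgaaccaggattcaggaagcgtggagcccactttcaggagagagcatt
Mcm6 held 5 matches, Mcm5 held 3, Uhrf1 held 2 and Tyms held 1, and in the windows shown for Tk1 and Gins2 no E2F core stood. The median log2 fold change was −0.52 for the 25 members with a core and −0.68 for the 9 without, a difference that was not tested. The 9 lack only the 4 words searched, and other forms of an E2F site were not searched. In neither median are the members without a window: Cdc6 (−1.52), Ccne2 (−1.39), E2f1 (−1.05), Orc1 (−0.81), Mcm4 (−0.73) and Gins4 (−0.59).

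**Figure D2:**
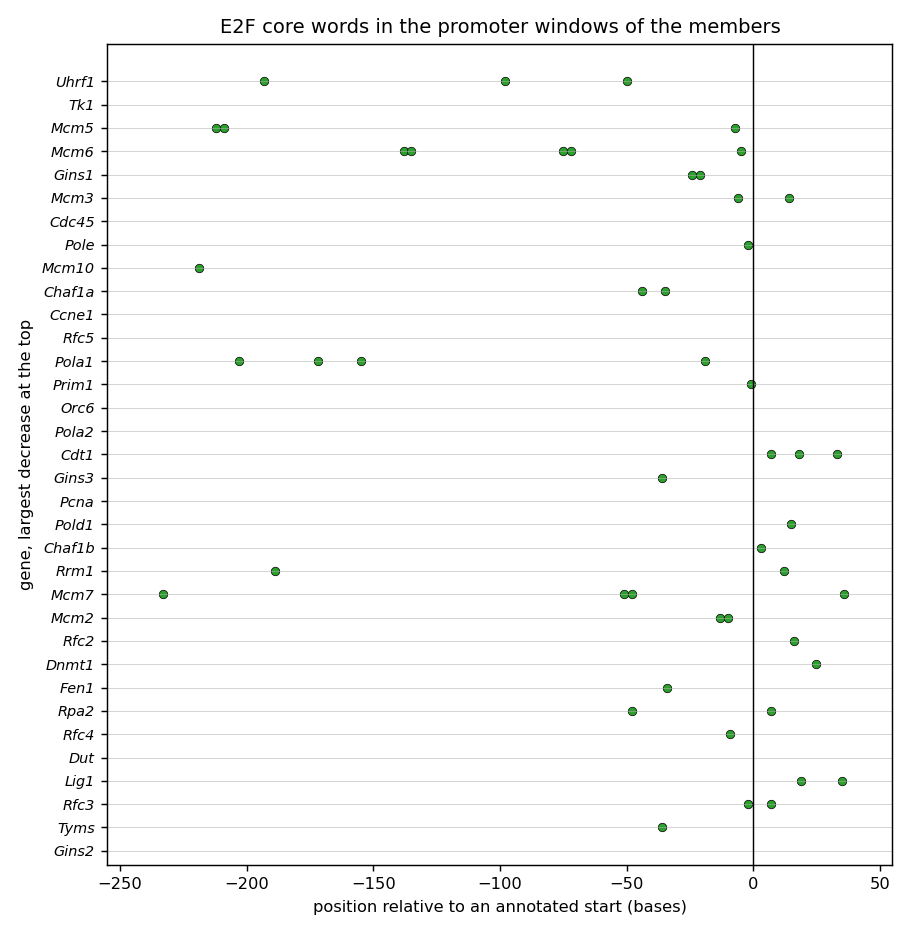
Positions of E2F core words, in bases relative to an annotated gene start (0), in the promoter windows of 34 replication genes, ordered by log2 fold change with the largest decrease at the top. Each dot is 1 match on either strand, and windows of genes with several starts are overlaid; 35 of 49 matches lie from 60 bases before to 50 bases after the start, and 9 genes have none.

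All 3 regulators of S phase entry fell. E2f1 (ENSRNOG00000016708), an activating factor of the E2F family, had 18.5, 16.6 and 17.2 CPM with 915, against 37.5, 36.8 and 38.1 CPM with DMSO. That is a 2.07-fold decrease (−1.05 ± 0.0668 on the log2 scale, with its SE, edgeR adjusted p = 1.33e-08). The 2 cyclins E activate the kinase Cdk2 at the start of S phase. Ccne1 had 9.92, 9.97 and 8.88 CPM with 915 and 17.5, 19.3 and 17.7 CPM with DMSO (−0.88 ± 0.0885, edgeR adjusted p = 1.64e-06). Ccne2 had 5.76, 7.77 and 4.33 CPM with 915 and 16.7, 13.3 and 18.2 CPM with DMSO (−1.39 ± 0.168, edgeR adjusted p = 9.15e-06). For Ccne2 the libraries of each group were spread more widely than for E2f1, and 915 library 2 was the highest of its group while DMSO library 2 was the lowest of its own, yet the groups did not overlap. The ratio of Ccne2 to Ccne1, taken on CPM + 0.5, did overlap between the groups, with log2 ratios of −0.74, −0.34 and −0.96 with 915, against −0.07, −0.52 and 0.04 with DMSO (exact two-sided permutation p = 0.2, adjusted over 12 gene pairs 0.2).

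All 10 measured licensing genes fell, with a median of −0.77. Cdc6 (ENSRNOG00000027787), the ATPase that recruits the helicase rings to the origin recognition complex, had 4.26, 3.97 and 4.45 CPM with 915, against 12.5, 12.7 and 12.6 CPM with DMSO. That is a 2.88-fold decrease, with both groups tight (log2 fold change −1.52 ± 0.104, edgeR adjusted p = 2.80e-08). Its partner Cdt1 fell less, to 13.2, 13.3 and 14.6 CPM with 915, against 22.01, 23.2 and 22.1 CPM with DMSO (−0.67 ± 0.0775, edgeR adjusted p = 6.75e-06). Gmnn, the inhibitor of Cdt1 and not itself a member, had 4.87, 5.20 and 5.09 CPM with 915 and 10.9, 10.8 and 11.2 CPM with DMSO (−1.07 ± 0.102, edgeR adjusted p = 9.69e-07). The log2 ratio of Cdt1 to Gmnn was therefore higher with 915 in every library, at 1.35, 1.28 and 1.43, against 0.98, 1.08 and 0.96 with DMSO, a difference of 0.35. The exact two-sided permutation p of 0.1, adjusted over 12 gene pairs 0.109, is the smallest that 3 against 3 libraries allow.

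Within the helicase ring the subunits did not fall by the same amount. Mcm5 had 22.3, 20.1 and 21.1 CPM with 915, against 47.7, 52.6 and 48.8 CPM with DMSO (−1.18 ± 0.0685, edgeR adjusted p = 5.19e-09). Mcm6 had 28.4, 29.4 and 26.5 CPM with 915, against 60.7, 65.6 and 65.5 CPM with DMSO (−1.14 ± 0.0633, edgeR adjusted p = 3.46e-09), and Mcm3 was near them at −1.10. Mcm4 stood between, at −0.73. Mcm7 and Mcm2 fell by 0.44 and 0.43 on the log2 scale, Mcm2 to 53.8, 58.5 and 54.9 CPM with 915, against 81.9, 80.6 and 71.1 CPM with DMSO. The log2 ratio of Mcm6 to Mcm2 was −0.91, −0.98 and −1.04 with 915, against −0.43, −0.29 and −0.12 with DMSO, so the groups did not overlap (difference −0.70; exact two-sided permutation p = 0.1, adjusted over 12 gene pairs 0.109). This pair was chosen after its values were seen, so its separation follows from the choice and its p is no test.

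The origin recognition complex was represented by 2 members. Orc1, its largest and most cell cycle dependent subunit in mammals, had 2.28, 3.67 and 1.99 CPM with 915 and 5.40, 4.07 and 4.81 CPM with DMSO. It had the fewest counts of all members, 81 to 232 per library, and the widest standard error (−0.81 ± 0.208, edgeR adjusted p = 4.80e-03). The highest 915 value was 90.2% of the lowest DMSO value. Orc6 fell by 0.68 on the log2 scale. The other subunits of the complex, Orc2, Orc3, Orc4 and Orc5, did not pass the test, with log2 fold changes of 0.02, 0.01, −0.01 and −0.17 (the last 3 named after their values were seen). Orc2 had 17.8, 17.6 and 14.0 CPM with 915 and 17.3, 15.3 and 17.8 CPM with DMSO, and its sign turned without further scaling of the library totals (−0.03). Set against Orc2, the log2 ratio of Orc1 was −2.72, −2.12 and −2.54 with 915, against −1.59, −1.79 and −1.78 with DMSO, without overlap (difference −0.74; exact two-sided permutation p = 0.1, adjusted over 12 gene pairs 0.109).

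Helicase activation genes ranged from large decreases to a gene that hardly differed. Cdc45, which joins the ring to form the active helicase, had 6.59, 6.91 and 6.49 CPM with 915, against 14.2, 16.2 and 12.5 CPM with DMSO (−1.05 ± 0.110, edgeR adjusted p = 2.27e-06). Mcm10, needed to fire the loaded origin, fell to 5.73, 5.32 and 5.49 CPM with 915, against 11.0, 12.2 and 11.7 CPM with DMSO (−1.03). The 4 GINS subunits, which form a single complex with each other, ranged widely. Gins1 had 3.66, 4.10 and 3.84 CPM with 915, against 9.24, 8.96 and 7.62 CPM with DMSO (−1.11 ± 0.125, edgeR adjusted p = 5.06e-06). Gins3 and Gins4 fell by 0.60 and 0.59 on the log2 scale. Gins2 had 25.5, 23.1 and 22.4 CPM with 915, against 26.8, 26.0 and 28.9 CPM with DMSO, which did not pass (−0.16 ± 0.0733, edgeR adjusted p = 0.0913). It was called lower without further scaling of the library totals (−0.21, edgeR adjusted p = 0.0320) and without 915 library 1 (−0.21, edgeR adjusted p = 0.0497). On the GRCr8 annotation Gins2 overlaps the protein-coding gene Gse1, and whether reads of Gse1 were counted for Gins2 was not tested. The log2 ratio of Gins1 to Gins2 was −2.64, −2.36 and −2.40 with 915, against −1.49, −1.49 and −1.86 with DMSO. The difference was −0.85 (exact two-sided permutation p = 0.1, adjusted over 12 gene pairs 0.109). Because this pair was chosen after its values were seen, its separation follows from the choice and its p is no test.

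**Figure D3:**
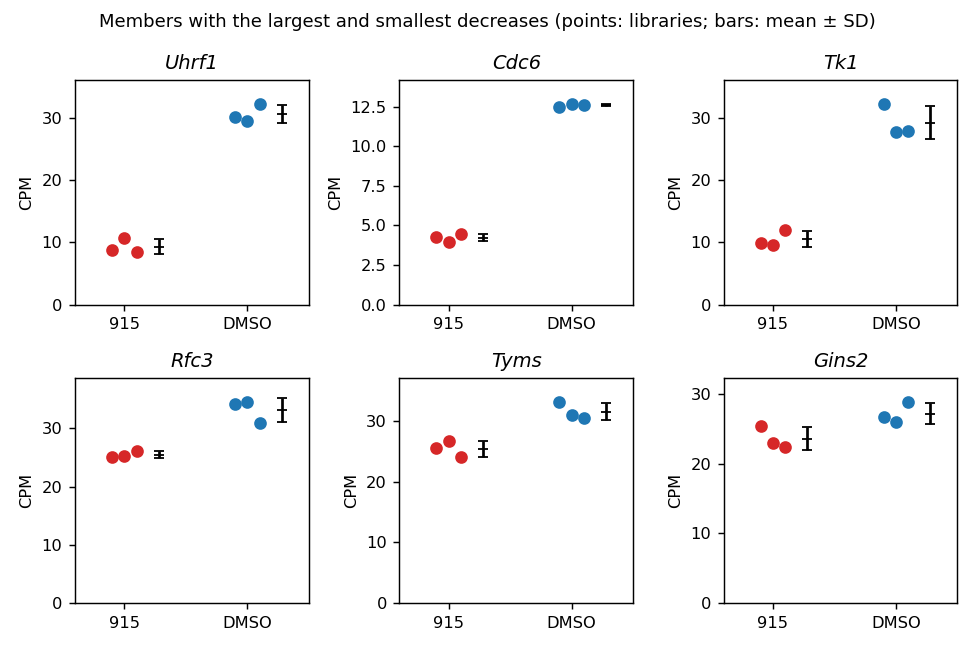
Level in CPM of 6 replication genes in the 3 libraries with 915 (left, red) and the 3 with DMSO (right, blue), the 3 members with the largest decreases above and the 3 with the smallest below. Points are libraries and black bars mean ± SD; for Uhrf1, Cdc6 and Tk1 the 915 points reach at most 36.2%, 35.6% and 43.3% of the lowest DMSO point, and for Gins2 the groups nearly touch.

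All 5 polymerase and primase genes fell. Pole, the catalytic subunit of the leading strand polymerase epsilon, had 16.1, 17.5 and 13.2 CPM with 915, against 33.6, 32.6 and 33.1 CPM with DMSO (−1.04 ± 0.0884, edgeR adjusted p = 2.98e-07). Pold1, the catalytic subunit of the lagging strand polymerase delta, had 15.7, 15.6 and 14.0 CPM with 915, against 23.7, 23.0 and 20.3 CPM with DMSO (−0.52 ± 0.0833, edgeR adjusted p = 1.36e-04). Between these polymerases the log2 ratio of Pole to Pold1 was 0.04, 0.17 and −0.08 with 915, against 0.49, 0.49 and 0.69 with DMSO, again without overlap (difference −0.52; exact two-sided permutation p = 0.1, adjusted over 12 gene pairs 0.109). The 3 members of the polymerase alpha and primase complex, which lays down the starting primers, moved alike: Pola1 by −0.74, Prim1 by −0.68 and Pola2 by −0.67. Prim1 had 17.8, 17.8 and 17.8 CPM with 915, against 29.8, 30.6 and 28.1 CPM with DMSO. In Pola1 DMSO library 2 was lowest of its group, at 15.7 CPM beside 20.2 and 22.1 CPM, and still above the 915 values of 11.4, 11.9 and 10.4 CPM.

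The sliding clamp, its loader and the genes that finish the lagging strand fell by less. Pcna (ENSRNOG00000021264), the clamp that tethers polymerases to DNA, had 52.0, 52.7 and 51.4 CPM with 915, against 77.8, 79.4 and 77.8 CPM with DMSO, with hardly any spread in either group (−0.54 ± 0.0509, edgeR adjusted p = 7.94e-07). Of the loader subunits Rfc5 fell by 0.78 on the log2 scale, and Rfc2, Rfc4 and Rfc3 by 0.43, 0.37 and 0.33. Rfc5 had 12.7, 12.7 and 11.6 CPM with 915, against 20.4, 24.4 and 20.9 CPM with DMSO. Fen1, the nuclease that trims the primer flaps, Rpa2, a subunit of the protein that coats single-stranded DNA, and Lig1, the ligase that seals the fragments, were close to each other, at −0.38, −0.38 and −0.36. Lig1 had 13.1, 13.2 and 16.0 CPM with 915, against 21.2, 16.3 and 18.7 CPM with DMSO. The groups of Lig1 almost touched, at 98.2%, and its call (edgeR adjusted p = 0.0119) was lost without 915 library 1 (edgeR adjusted p = 0.0637) or DMSO library 1 (edgeR adjusted p = 0.0724).

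Among the nucleotide supply genes a single large decrease stood beside small ones. Tk1 (ENSRNOG00000047314), the cytosolic thymidine kinase that salvages thymidine and also phosphorylates bromodeoxyuridine, had 9.94, 9.66 and 12.004 CPM with 915, against 32.3, 27.7 and 27.9 CPM with DMSO. The decrease was 2.68-fold (−1.42 ± 0.0954, edgeR adjusted p = 2.30e-08). Rrm1, the large subunit of ribonucleotide reductase, had 89.1, 88.0 and 88.2 CPM with 915, against 133, 121 and 126 CPM with DMSO (−0.47 ± 0.0490, edgeR adjusted p = 2.16e-06). Dut, which removes dUTP before it enters DNA, fell by 0.37 on the log2 scale. Tyms, which makes thymidylate de novo, had 25.6, 26.8 and 24.1 CPM with 915, against 33.2, 31.0 and 30.6 CPM with DMSO (−0.26 ± 0.0663, edgeR adjusted p = 4.36e-03), the smallest decrease that passed. Tk2, the thymidine kinase of mitochondria and not a member, rose to 16.0, 20.02 and 18.1 CPM with 915, against 15.6, 13.7 and 14.7 CPM with DMSO (0.35 ± 0.0923, edgeR adjusted p = 6.36e-03). The log2 ratio of Tk1 to Tk2 was −0.66, −1.01 and −0.57 with 915, against 1.03, 0.99 and 0.90 with DMSO, so that it lay on opposite sides of 0 in the 2 groups. The difference was −1.72, a 3.30-fold change of the ratio (exact two-sided permutation p = 0.1, adjusted over 12 gene pairs 0.109).

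The largest decrease of the 40 belonged to a gene that links replication to DNA methylation. Uhrf1 (ENSRNOG00000048411), which binds hemimethylated DNA behind the fork and recruits the maintenance methyltransferase Dnmt1, had 8.79, 10.7 and 8.46 CPM with 915, against 30.2, 29.5 and 32.3 CPM with DMSO. It was 3.19-fold lower (−1.68 ± 0.0912, edgeR adjusted p = 2.93e-09). Dnmt1 itself had 79.1, 83.1 and 90.3 CPM with 915, against 121, 112 and 116 CPM with DMSO (−0.42 ± 0.0574, edgeR adjusted p = 3.35e-05). The log2 ratio of Uhrf1 to Dnmt1 was −3.10, −2.90 and −3.34 with 915, against −1.98, −1.903 and −1.83 with DMSO (difference −1.21; exact two-sided permutation p = 0.1, adjusted over 12 gene pairs 0.109). Chaf1a and Chaf1b, the 2 large subunits of the chromatin assembly factor that places histones on new DNA, fell by 1.00 and 0.52 on the log2 scale. Chaf1a had 15.8, 14.0 and 16.1 CPM with 915, against 33.2, 31.9 and 30.1 CPM with DMSO.

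Ordered by step, the median log2 fold change was −1.05 for the 3 regulators of S phase entry, −0.81 for the 6 helicase activation genes, −0.77 for the 10 licensing genes, −0.76 for the 4 chromatin and methylation genes and −0.68 for the 5 polymerase and primase genes. It was −0.43 for the 5 clamp and loader genes, −0.42 for the 4 nucleotide supply genes and −0.38 for the 3 genes of strand joining and single-strand binding. With single libraries left out, the median of S phase entry ran from −1.09 to −1.02, apart from that of helicase activation (−0.86 to −0.77), and the median of polymerases and primase ran from −0.73 to −0.65, apart from that of the clamp and its loader (−0.49 to −0.38). The other neighbours in this order overlapped, licensing running from −0.89 to −0.70 and chromatin and methylation genes from −0.80 to −0.68. These ranges reflect single libraries and not the spread between genes. Single genes overlapped also where the ranges lay apart: Ccne1 (−0.88) fell less than Cdc45 (−1.05), and Rfc5 (−0.78) fell more than Pold1 (−0.52). Further pairs from the same step were chosen after their values were seen. Their log2 ratios differed by −0.78 (Cdc6 to Orc6), −0.43 (Rfc5 to Rfc3), −0.48 (Chaf1a to Chaf1b) and −1.02 (Tk1 to Dut). Each was without overlap between the groups (exact two-sided permutation p = 0.1, adjusted over 12 gene pairs 0.109). Each pair sets a larger decrease beside a smaller one, so its separation follows from the choice and its p is no test. Members of a step are not replicates, and the differences between steps were not tested. Members of the same step could differ widely, as in nucleotide supply, where Tk1 stood at −1.42 and Tyms at −0.26.

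**Figure D4:**
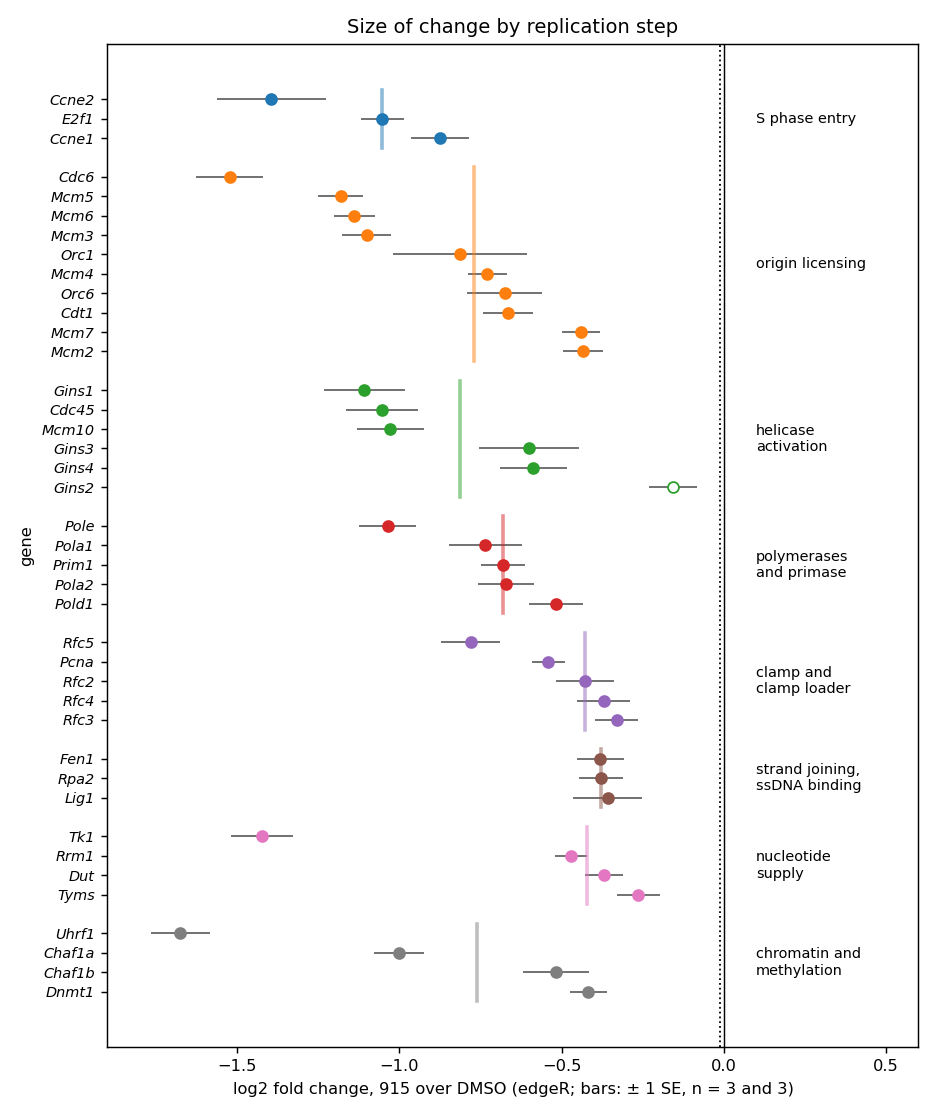
Log2 fold change (915 over DMSO, edgeR) of each replication gene by step, with bars of ± 1 SE from 3 libraries with 915 and 3 with DMSO. Coloured vertical lines are step medians, the dotted line is the median of all genes tested, and Gins2, the open circle, did not pass an adjusted p of 0.05; licensing and helicase genes reach below −1 while clamp and strand joining genes lie between −0.78 and −0.33.

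Replication factors outside the 40 members numbered 36, of which 24 fell, 2 rose and 10 did not pass the test, with a median of −0.56. Over all genes tested, 25.5% were lower and 24.3% higher. The lowest were Clspn, a fork protection and checkpoint adaptor, at −1.77, Pole2, the second subunit of polymerase epsilon, at −1.56, and the histone chaperone gene Asf1b at −1.53. Clspn had 3.87, 3.61 and 3.37 CPM with 915, against 12.3, 12.4 and 13.6 CPM with DMSO. The 2 that rose were the small accessory subunits of the delta and epsilon polymerases, Pold4 (0.32, edgeR adjusted p = 6.69e-03) and Pole4 (0.29, edgeR adjusted p = 7.67e-04). Of 12 further E2F and pocket protein genes 8 were lower and 1 higher (median −0.31), and 4 were lower without DMSO library 1 and 5 without DMSO library 3. The atypical E2F repressors E2f8 and E2f7 were the lowest, at −2.01 and −1.81, then the pocket protein gene Rbl1 at −0.99. E2f8 had 1.96, 2.26 and 2.14 CPM with 915, against 9.26, 8.67 and 8.55 CPM with DMSO. E2f6, a repressor of the same family, rose by 0.28.

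Of 26 listed nucleotide supply genes outside the members, 25 were tested, 9 were lower and 7 higher, and the median was 0.00, against −0.01 over all genes tested. These counts lie near what the shares over all genes tested give, 25.5% lower and 24.3% higher. The 7 became 4 without further scaling of the library totals, without 915 library 1 or without DMSO library 1. Among those that fell were the deoxycytidine kinase gene Dck at −0.61 and the dCTP pyrophosphatase gene Dctpp1 at −0.43. The call of Dctpp1 was lost without 915 library 1 or 3 and without DMSO library 2 or 3. The highest were Dguok, the deoxyguanosine kinase of mitochondria, at 0.48, the nucleoside diphosphate kinase gene Nme2 at 0.48 and the purine synthesis gene Paics at 0.35. Dguok had 22.2, 22.01 and 21.2 CPM with 915, against 16.4, 16.4 and 15.6 CPM with DMSO. Nme1, the close relative of Nme2 and named after its value was seen, stood at −0.24, and reads of similar genes may be split between this pair in counting.

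Beside these, 20 genes of mitosis were listed and 16 matched. All 16 were lower by at least 2-fold, where 25.5% of all genes tested were lower and 6.9% lower by at least 2-fold. Their log2 fold changes ran from −2.56 to −1.02 with a median of −1.69, against the −0.67 of the replication genes. The mitosis list and the replication list were not tested against each other, and their ranges overlap: 12 of the 40 replication genes, Uhrf1, Cdc6, Tk1 and Ccne2 among them, had a lower log2 fold change than Aurka (−1.02), a mitotic kinase gene and the least changed of that list.

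**Figure D5:**
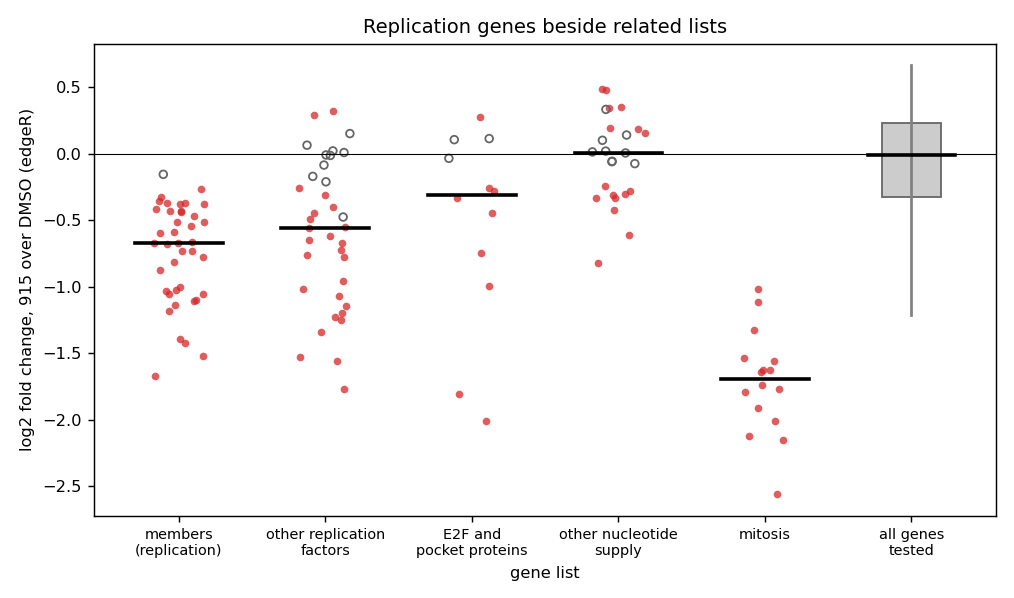
Log2 fold change (915 over DMSO, edgeR) of the 40 replication genes, further replication factors, E2F and pocket proteins, further nucleotide supply genes and mitosis genes. Filled red points passed an adjusted p of 0.05, open points did not, black lines are medians, and for all genes tested the box spans the 25th to 75th and the line the 5th to 95th percentile; the replication median is −0.67, the nucleotide supply median 0.00 and the mitosis median −1.69.

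Variation within a group was small for most members. Among the 40 members, 915 libraries 1, 2 and 3 were the highest of their group for 12, 15 and 13 genes, and DMSO libraries 1, 2 and 3 for 17, 17 and 6. The median deviation from the group's own mean was at most 0.03 on the log2 scale in any library. The widest relative spread was that of Orc1 with 915 (coefficient of variation 33.9%), followed by Ccne2 with 915 (29.0%). Prim1 with 915 (0.148%), Rrm1 with 915 (0.621%) and Cdc6 with DMSO (0.688%) were the tightest. Within DMSO the widest spreads were those of Pola1 (16.8%), Ccne2 (15.7%), Orc1 (14.0%) and Lig1 (12.9%). In each of these genes DMSO library 2 was the lowest of its group. On the later GRCr8 annotation 6 members, Gins2, Lig1, Uhrf1, Ccne2, Fen1 and E2f1, overlap another protein-coding gene, and reads of such neighbours may be shared, since the sources used here do not give the strand setting of the counting.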

How the data were processed

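RNA-seq reads of 3 libraries with 915 and 3 with DMSO were analysed. These are all the libraries in the data used here, and another compound, 332, was not analysed here. The authors' deposited tables give counts per gene and CPM; per the submitters' processing notes STAR 2.5.1a, featureCounts 1.4.6-p5 and the Rnor_6.0 build were used, with strand setting and annotation not given in the sources used here. The deposited CPM values are counts divided by library totals of 32709227 to 40652711 (915) and 39513590 to 42975767 (DMSO), of which 93.1% to 93.7% lie in the table. A count of 3 equals 0.0738 to 0.0917 CPM with 915 and 0.0698 to 0.0759 CPM with DMSO, for counting error only. Of 22641 lines, 993 repeats of a gene were dropped, which left 21648 genes.

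Counts were tested with edgeR 4.0.16 (R 4.3.3, limma 3.58.1): recovered totals as library sizes, filterByExpr (14253 genes kept), TMM scaling, a quasi-likelihood fit on group alone and Benjamini-Hochberg adjustment over all genes tested, with p of 0.05 as threshold. Standard errors were taken as the absolute log2 fold change divided by the root of F. The fit was also run on simulated counts that took their dispersion from the fit to these data. Far fewer genes were changed in them than were called here, so they say nothing on the TMM scaling. Ratios of gene pairs used log2(CPM + 0.5) and an exact two-sided permutation test (scipy 1.17.1). Of 8 pairs planned 6 could be computed and 6 were added after values were seen. The adjustment covered planned and added pairs together, so the pairs added after their values were seen lowered the adjusted p of the planned pairs. Members and lists were chosen with earlier results of these data known. Genes outside the members are named as up to 3 lowest and up to 3 highest of each pathway list among those past the threshold, as the extremes of marker lists, and as partners in pairs; 1 gene that this rule names is not reported here. Alternatives were DESeq2 1.42.0, RLE size factors, unscaled totals, other filters, a replicate block, each library left out, and pseudocounts of 0.1 and 1. Promoters came from RefSeq windows on GRCr8, a later build than that of the files.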

Additional observations from a re-analysis of the deposited data

How the results depend on the processing

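Over 12 alternatives, 480 calls of the 40 members were recomputed. Of these, 476 stayed on their side of the threshold, 2 were lost (Lig1), 2 were gained (Gins2) and 0 reversed. At an edgeR adjusted p of 0.001, a threshold added after seeing the data, 33 members were lower. The share of all genes tested at that threshold is not given here, so this count has nothing to be read against. Without further scaling of the library totals 4192 genes were lower and 2905 higher, against 3636 lower and 3460 higher with TMM; the member median was then −0.72, the licensing median −0.82, the helicase median −0.86, the median of other nucleotide supply genes −0.0444 and Orc2 −0.0289. That nucleotide supply median was −0.0258 with no filter on low counts. With single libraries left out, the medians ran from −0.69 to −0.64 for the members, −0.89 to −0.70 for licensing, −0.86 to −0.77 for helicase activation, −0.49 to −0.38 for the clamp, −0.80 to −0.68 for chromatin and −0.0310 to 0.0343 for other nucleotide supply, and Orc2 from −0.0370 to 0.124; the cause was not tested. DESeq2 called 3444 genes lower and 3417 higher, with 39 members lower. No pairing by replicate number was seen (correlations of −0.06, −0.21 and −0.12 between libraries of the same number, and no library correlated best with its own number). Such weak correlations from 3 libraries per group cannot exclude a shared isolation or day. With the replicate block 3197 genes were lower and 2996 higher, and 39 members were lower. The 3 libraries per group and low counts, as in Orc1, limit the precision.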
